A study of Mus musculus with 4 samples.

Results

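The proteasome genes of mouse oocytes were examined part by part of the particle, as 49 genes of the 21957 in the table. They were chosen by symbol, as every gene named Psma to Psmg with a number. The symbol rule matched 50 genes, and 1 of them, Psmc3ip, is a meiotic recombination gene and no part of the proteasome, so it was kept apart. The 49 genes comprised 8 of the alpha ring (Psma), 7 constitutive and 4 immune or thymic genes of the beta ring (Psmb), 6 ATPases (Psmc), 14 other genes of the regulatory particle (Psmd), 5 activators (Psme), 1 inhibitor (Psmf1) and 4 assembly factors (Psmg).

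The oocytes came from hybrid B6D2F1 (C57BL/6 x DBA) females of 6 to 8 weeks that had been primed with gonadotropin, and cumulus cells were removed with hyaluronidase. GV oocytes, which still hold the germinal vesicle of meiotic arrest, were taken before culture at 0 h and without compound. Whether untreated oocytes received the solvent, DMSO, is not given in the sources used here. MII oocytes were cultured for 12 h without compound and were kept if they had extruded a polar body, TubA-10 oocytes were cultured for 12 h with 10 µM tubastatin A, and TubA-20 oocytes for 12 h with 20 µM. Tubastatin A is a small molecule designed against the histone deacetylase HDAC6. The doses are those of the sample titles; the treatment field of the labels gives other doses for both treated libraries and puts the higher dose on the library titled with the lower one, so the order of dose rests on the titles. The title of the MII sample calls it an embryo, and it is taken as MII oocytes after the methods. Each condition was 1 library from a pool of 100 oocytes, so no difference below has a replicate check and no p-value is given. The methods name selection by polar body for MII oocytes and not for treated ones, so stage and compound cannot be told apart between TubA-20 and MII.

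The proteasome is the protease that degrades proteins tagged with ubiquitin. Its core particle is a barrel of stacked rings: the outer alpha rings form the gate and the inner beta rings hold the active sites, in the subunits β1, β2 and β5. The regulatory particle caps the barrel. Its base holds a ring of ATPases that unfold the substrate and receptors that bind ubiquitin, and its lid holds the deubiquitinase that removes the tag. Oocytes need the proteasome to destroy cyclin B and securin at anaphase. The growing oocyte stores its mRNA, and during maturation transcription is silent, so mRNA is degraded, kept, or given a longer poly(A) tail. The cytoplasmic polyadenylation element (CPE) is a short stretch of U bases ahead of the poly(A) signal to which the tail-lengthening machinery binds.

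Sites from the ends of 3′ untranslated regions are shown because they contrast genes of the same particle. They are 30 bases each, from the GENCODE transcript with the longest coding sequence on GRCm38, written 5′ to 3′ on the transcript strand with T for U. In the first 6, which are all members with these letters in the last 100 bases of the transcript, the capitals mark the CPE letters TTTTAT or TTTTAAT. In the last 3, which are the genes of the active sites, the 3′ untranslated regions hold no CPE letters and the capitals mark 1 poly(A) hexamer, AATAAA or ATTAAA. In Psmb7 it is the hexamer farthest from the end, and 3 more of AATAAA come after it, each overlapping the one before. The first of these begins on the last capital base, and the rest is left in lower case where it falls in the printed stretch.
Psma1 (chr7:114264659-114264688, minus strand): ctataccaatgtTTTTATatgaagaaaata
Psma5 (chr3:108279910-108279939, plus strand): gtgtgtgtgtttTTTTATgaagtctgtaca
Psmb3 (chr11:97713466-97713495, plus strand): tttgtttttctTTTTAATaaaattgccttt
Psmg1 (chr16:95979966-95979995, minus strand): tgatgttttgtaTTTTATtctggcttggga
Psmb1 (chr17:15475028-15475057, minus strand): tttttgcttttTTTTAATaaacttctgttc
Psmg3 (chr5:139823620-139823649, minus strand): gtgggaagatttTTTTATtaaaaataaatc
Psmb5 (chr14:54614124-54614153, minus strand): ctccatggctatAATAAAtaatagtacctc
Psmb6 (chr11:70527620-70527649, plus strand): gacgcagaagctAATAAAcagtttgttaaa
Psmb7 (chr2:38588052-38588081, minus strand): ggcaattgctcaATTAAAataaataaataa

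Levels are FPKM, fragments per kilobase of transcript and scaled to the mapped fragments of the library, as deposited by the authors. FPKM is relative to the rest of each library and is per length. Levels of different genes are set side by side only with caution, since gene model, near-identical copies and overlapping genes can also shift them. A change is the log2 of the ratio of (FPKM + 1) between 2 libraries, and a gene past 2-fold has a change above 1 or below -1. RNA was selected on its poly(A) tail, so a lower level and a shorter tail cannot be told apart, and nor can less RNA per oocyte be told from a different makeup of the RNA. All 11 oocyte marker genes were present, with sums of 15999 to 21922 FPKM per library, but not at steady levels: from GV to TubA-20, Figla went from 90.5 to 12.4 FPKM and Zp3 from 2454 to 973, while Oosp1 went from 2699.9 to 6213. Of 12 markers of cumulus and granulosa cells, 8 were below 1 FPKM in every library, and their sum was 10.2 to 17.3 FPKM, most of it Cyp19a1. The 8 white blood cell markers summed to 0.705 to 2.54 FPKM.

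Summed over the 49 genes, proteasome RNA made up 1.66% of all FPKM in GV oocytes, 1.15% in TubA-10, 1.05% in MII and 1.02% in TubA-20 oocytes. The difference was uneven within the particle. In TubA-20 against GV oocytes the median change was -0.07 over the 8 alpha genes, -2.35 over the 7 constitutive beta genes, -2.13 over the 6 ATPases, -0.54 over the 14 Psmd genes, 0.19 over the 5 activators and -0.91 over the 4 assembly factors, beside a median of 0 over all 21957 genes. The activators have no settled direction, since their median is the value of Psme2b, which lay below 0.5 FPKM. Without the activators under 1 FPKM in GV and TubA-20 it was -0.19 over 4 genes, and without those under 5 FPKM it was 0.43 over 3. The corresponding medians in MII oocytes were -0.26, -1.60, -1.74, -0.33, -0.24 and -0.77. In TubA-10 oocytes they were -0.14, -1.08, -1.45, -0.13, -0.24 and -0.24. Of these 6 groups the beta genes and the ATPases had a median past 2-fold in all 3 libraries against GV, except that the beta genes in TubA-10 had -0.82 with Gapdh held equal. The alpha and Psmd genes had one in none. The activator and assembly genes had none in the main setting but passed 2-fold downward in some others. The assembly genes had -1.06 in TubA-20 with a median change of 0, and the activators -1.04 in MII with a pseudocount of 0.1.

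By count, 22 of the 49 members lay more than 2-fold below GV in TubA-20 oocytes and 3 lay more than 2-fold above it, where 11.7% of all genes were lower and 7.61% higher. In MII against GV oocytes 20 genes were lower and 0 higher, against 8.34% and 3.05% of all genes. In TubA-10 against GV oocytes 17 were lower and 0 higher, against 5.6% and 0.742% of all genes. Between TubA-20 and MII oocytes 5 were lower and 0 higher, against 2.44% and 0.328% of all genes.

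Many genes of the table are silent in oocytes, so the same counts were made over genes with a mean of at least 10 FPKM in the 4 libraries, of which there were 5546 in the table and 40 among the members. There, TubA-20 oocytes had 21 members lower and 3 higher than GV oocytes, against 24% and 24% of such genes, and the median change was -1.35 for members and 0.37 for such genes. In MII oocytes 20 members were lower and 0 higher, against 19% and 9.9%. In TubA-10 oocytes 16 were lower and 0 higher, against 12.7% and 1.95%. In TubA-20 against MII oocytes 5 were lower and 0 higher, against 6.85% and 0.379%. The share of members lower against GV was thus 52.5%, 50% and 40%, above that of all such genes in each comparison, with no replicate to give the error of either.

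**Figure D1:**
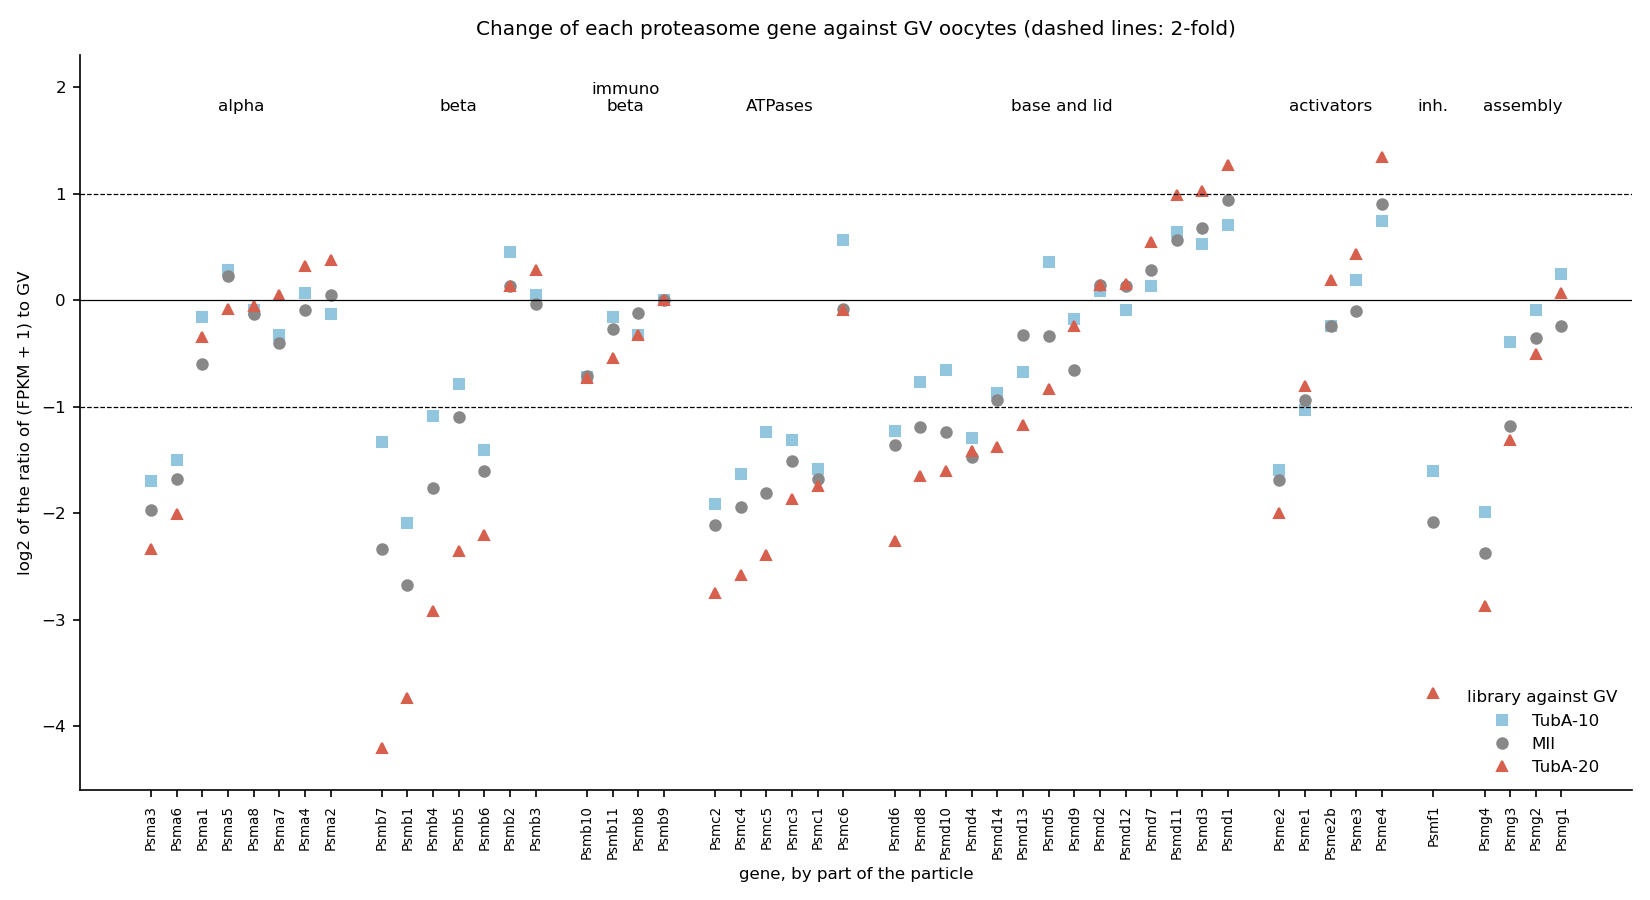
Change of each of the 49 proteasome genes in TubA-10 (squares), MII (circles) and TubA-20 (triangles) against GV oocytes, as the log2 ratio of (FPKM + 1) from 1 library each, ordered within each part of the particle by the TubA-20 value; dashed lines mark 2-fold. The beta ring and the ATPases sit mostly below the lower line, while 6 of the 8 alpha genes lie between the lines.

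In the alpha ring, which builds the gate of the barrel, 2 of 8 genes were past 2-fold and the others were not. Psma3, the α7 subunit, was at 237 FPKM in GV, 72.4 in TubA-10, 59.8 in MII and 46.3 in TubA-20 oocytes, a change of -2.33 in the last against GV. Psma6, α1, was at 313, 110.0, 97.3 and 77.3 FPKM in the same order, a change of -2.00. Both were lower in all 3 libraries than in GV, and both were lowest in TubA-20.

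The other alpha genes stayed within 2-fold. Psma7, α4, which was the highest of all 49 genes in each library, was at 1227 FPKM in GV, 976 in TubA-10, 931 in MII and 1271 in TubA-20 oocytes. Psma2, α2, was at 742, 679, 769 and 963 FPKM. Psma1, α6, was at 311, 279.9, 206 and 246 FPKM, Psma4, α3, at 197, 206, 185 and 248 FPKM, and Psma5, α5, at 178, 216, 208 and 167 FPKM. Apart from Psma8, the highest and lowest alpha genes differed 6.91-fold in GV, 13.5-fold in TubA-10, 15.6-fold in MII and 27.5-fold in TubA-20 oocytes. The alpha genes thus already lay wider apart in MII oocytes, without compound, than in GV. Psma8, a germ cell paralog of Psma7 known from the testis, was at or below 0.0937 FPKM in every library.

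In the beta ring all 3 genes of the active sites were past 2-fold in TubA-20 and in MII oocytes, except that Psmb5 in MII had -0.87 with Gapdh held equal and -0.97 with equal FPKM sums. Psmb7, the trypsin-like β2, was at 273 FPKM in GV, 107.8 in TubA-10, 53.2 in MII and 13.8 in TubA-20 oocytes. Its change of -4.21 in TubA-20 was the lowest of all 49 genes and left 5.07% of its GV level. Psmb5, the chymotrypsin-like β5 and the target of bortezomib, was at 80.5, 46.4, 37.1 and 14.9 FPKM, and its 3 changes against GV were -0.78, -1.10 and -2.35. Psmb6, the caspase-like β1, was at 944, 357, 310.2 and 205 FPKM, a change of -2.20 in TubA-20. Each had the order GV, TubA-10, MII, TubA-20 from high to low.

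The other 4 beta genes, which have no active site, split. Psmb1, β6, was at 742 FPKM in GV, 174 in TubA-10, 115.6 in MII and 54.8 in TubA-20 oocytes, a change of -3.73. Psmb4, β7, was at 228, 107.0, 66.7 and 29.4 FPKM, a change of -2.91. Both were also past 2-fold downward against MII, with changes of -1.06 and -1.16.

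Psmb2, β4, was at 439, 600.0, 481 and 481 FPKM, and Psmb3, β3, at 256, 266, 249 and 313 FPKM. They stayed within 2-fold in every comparison, so in TubA-20 oocytes Psmb2 stood 34.8-fold above Psmb7, where in GV oocytes the highest beta gene stood 11.7-fold above the lowest. The subunits of one ring are needed in equal number per particle.

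Of the 5 members that lay more than 2-fold under MII in TubA-20 oocytes, 4 were thus beta genes, namely Psmb7 at -1.87, Psmb5 at -1.26, Psmb4 and Psmb1. The remaining one was Psmf1. Psmd6, a gene of the lid, lay just within 2-fold of MII at -0.90 as deposited. It passed 2-fold at -1.04 with equal FPKM sums, -1.01 with equal upper quartiles and -1.055 with Gapdh held equal.

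The immune and thymic beta genes, which replace the constitutive active sites in immune cells and thymus, were near absent. Psmb10, β2i, was at 1.30 FPKM in GV oocytes and at 0.383 to 0.405 FPKM in the others. Psmb11, β5t, lay at 0.096 to 0.599 FPKM and Psmb8, β5i, at 0 to 0.251 FPKM. Psmb9, β1i, was listed at 0 in all 4 libraries. Of 7 interferon-induced genes, 5 were below 1 FPKM in every library, and B2m, at 53.1 to 88.4 FPKM, made up most of their sum.

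**Figure D2:**
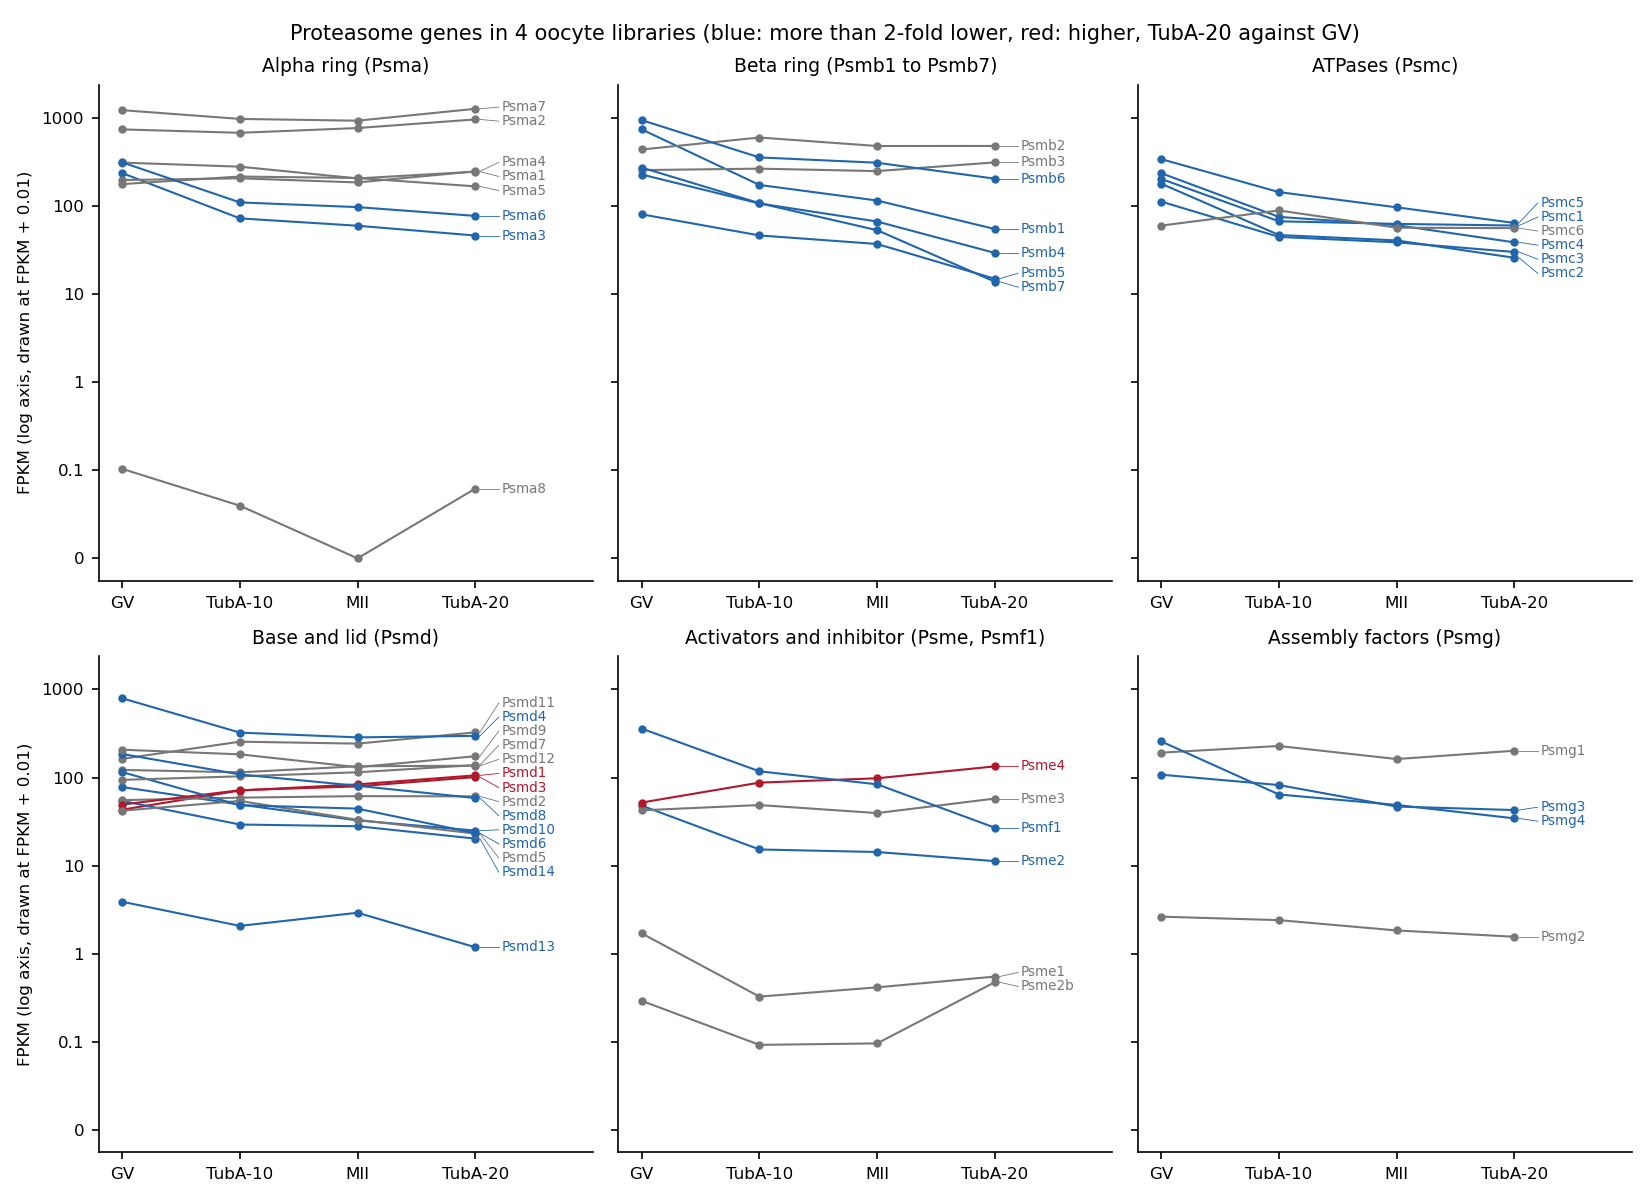
FPKM of each proteasome gene in the 4 libraries on a log axis, in 6 panels by part of the particle, with the 4 immune and thymic beta genes left out; each line joins the values of 1 gene and is no time course, and blue or red marks genes past 2-fold downward or upward in TubA-20 against GV. Between highest and lowest, beta genes fan out from 11.7-fold in GV to 34.8-fold in TubA-20, and ATPases draw together from 5.68-fold to 2.49-fold. In TubA-10 and MII the beta genes span 12.93-fold and 12.96-fold.

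The ATPases form the ring that unfolds substrates, and 5 of 6 were past 2-fold in each library against GV, except that Psmc5 in TubA-10 had -0.97 with Gapdh held equal. Psmc2, Rpt1, was at 179 FPKM in GV, 46.9 in TubA-10, 40.7 in MII and 25.9 in TubA-20 oocytes, a change of -2.75. Psmc4, Rpt3, was at 236, 75.3, 60.7 and 38.7 FPKM, and Psmc5, Rpt6, at 341, 144, 96.7 and 64.3 FPKM. These 3 had changes of -2.39 or lower.

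Psmc3, Rpt5, was at 112, 44.6, 38.7 and 30.1 FPKM, a change of -1.87, and Psmc1, Rpt2, at 203, 67.1, 62.7 and 60.1 FPKM, a change of -1.74. Psmc6, Rpt4, was the exception, at 60.0 FPKM in GV, 89.1 in TubA-10, 56.8 in MII and 56.1 in TubA-20 oocytes. It was the lowest ATPase in GV oocytes and the third highest in TubA-20. The ring thereby became more even in RNA, with a highest over lowest of 5.68 in GV, 3.23 in TubA-10, 2.5 in MII and 2.49 in TubA-20 oocytes. Over the constitutive beta genes it was 11.7 in GV, 12.93 in TubA-10, 12.96 in MII and 34.8 in TubA-20. The beta ring thus widened mostly in TubA-20. All 6 ATPases were within 2-fold between TubA-20 and MII, with a median of -0.47.

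The 14 Psmd genes held both directions: TubA-20 oocytes had 6 of them more than 2-fold below GV, 2 more than 2-fold above and 6 between. Psmd4, Rpn10, a ubiquitin receptor and the highest Psmd gene in GV oocytes, was at 794 FPKM there, 324 in TubA-10, 286 in MII and 297 in TubA-20. As deposited it was the 1 gene of the 22 lower ones that was not below its MII level in TubA-20, at 0.06 above it, and under each of the 4 scalings it was below, by -0.01 to -0.10. Psmd14, Rpn11, the deubiquitinase of the lid, was at 54.3, 29.3, 28.0 and 20.3 FPKM, a change of -1.38.

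Psmd6, Rpn7, was at 115, 48.6, 44.4 and 23.3 FPKM, a change of -2.26, and Psmd8, Rpn12, at 185, 108.5, 80.6 and 58.5 FPKM, a change of -1.65. Both belong to the lid. Psmd10, gankyrin, a chaperone of base assembly, was at 78.0, 49.3, 32.6 and 24.98 FPKM, a change of -1.60. Psmd13, Rpn9, was low throughout, at 3.88, 2.06, 2.91 and 1.18 FPKM, and its change of -1.17 rests on values close to the added 1 FPKM.

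The higher Psmd genes were a scaffold of the base and genes of the lid. Psmd1, Rpn2, a scaffold of the base, was at 43.2 FPKM in GV, 71.2 in TubA-10, 83.7 in MII and 105.9 in TubA-20 oocytes, a change of 1.27. Psmd3, Rpn3, of the lid, was at 49.3, 71.8, 79.4 and 101.3 FPKM, a change of 1.02, which falls under 2-fold, to 0.97, if the libraries are given equal upper quartiles, and to 0.84 if their median change is made 0. Psmd11, Rpn6, was at 163, 255, 243 and 326 FPKM, a change of 0.99, just within 2-fold, and 1.06 with Gapdh held equal. All 3 were lowest in GV and highest in TubA-20.

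The other Psmd genes stayed within 2-fold of GV. Psmd2, Rpn1, the second scaffold of the base, was at 55.4, 59.1, 61.5 and 61.1 FPKM, Psmd7, Rpn8, the partner of Rpn11, at 94.1, 103.3, 114.8 and 138 FPKM, and Psmd12, Rpn5, at 122, 114.6, 134 and 136 FPKM. Rpn8 and Rpn11 form a heterodimer in the lid, and their changes were 0.55 and -1.38. Of the base chaperones, Psmd9 was at 207, 183, 131 and 175 FPKM and Psmd5 at 42.0, 54.3, 33.1 and 23.1 FPKM, a change of -0.84 against GV, which is -1.02 with the libraries at a median change of 0, and of -1.20 against TubA-10. When genes were grouped by position rather than name, the median in TubA-20 against GV was -1.74 over the 9 base genes and -0.50 over the 8 lid genes.

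Among the alternative caps, Psme4, PA200, which binds the core without ATP and is known for histone degradation in germ cells, was at 52.0 FPKM in GV, 87.6 in TubA-10, 98.1 in MII and 133.9 in TubA-20 oocytes. Its change of 1.35 was the highest of the 49 genes. Psme3, which forms a nuclear cap of its own, was at 42.4, 48.7, 39.5 and 57.7 FPKM. Psme2 was at 48.0, 15.2, 14.3 and 11.2 FPKM, a change of -2.00, and Psme1, with which it forms a ring, was at 1.69, 0.316, 0.405 and 0.540 FPKM. The pair was thus unequal in every library. Psme2b, a near-identical copy of Psme2, was at 0.0822 to 0.464 FPKM.

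Psmf1, PI31, named as an inhibitor of the core and known as an adaptor for proteasome transport, was at 359 FPKM in GV, 118 in TubA-10, 83.8 in MII and 27.0 in TubA-20 oocytes. Its change of -3.69 was the third lowest of the 49 genes, after Psmb7 and Psmb1, and its change against MII was -1.60.

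The assembly factors work in pairs that scaffold the alpha ring, and the first pair was unequal in every library. Psmg1, PAC1, was at 192, 228, 162 and 202 FPKM, while its partner Psmg2, PAC2, was at 2.62, 2.40, 1.83 and 1.55 FPKM. Psmg3, PAC3, was at 107.8, 82.1, 46.9 and 42.7 FPKM, a change of -1.31, and its partner Psmg4, PAC4, was at 257, 64.2, 48.9 and 34.4 FPKM, a change of -2.87. Both genes of the second pair were past 2-fold in TubA-20 and in MII, except that Psmg3 in MII had -0.96 with Gapdh held equal.

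The libraries fell into a recurring order. From high to low, GV, TubA-10, MII, TubA-20 was the order of 22 of the 49 genes (44.9%), where 12.7% of all genes had it, and of 20 of the 40 members with a mean of at least 10 FPKM (50%), where 22.1% of such genes had it. Of the 22 members past 2-fold downward in TubA-20, 20 had this order, 20 were also past 2-fold in MII and 16 in TubA-10. Of the 2569 genes of the table past 2-fold downward in TubA-20, 73.7% had this order, 67% also passed 2-fold in MII and 45.5% did so in TubA-10, beside 90.9%, 90.9% and 72.7% of the 22 members. With a mean of at least 10 FPKM the shares were 79%, 75.7% and 51.7% of 1331 genes, beside 95.2%, 95.2% and 76.2% of 21 members. The comparisons share the GV library, so these counts are not independent of each other. The reverse order was that of 4 members, Psmd1, Psmd3, Psmd7 and Psme4 (8.16%), beside 13.1% of all genes, and that of 10% of members with a mean of at least 10 FPKM beside 31.8% of such genes. This order was chosen after the values were seen.

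A list of 29 genes that work with the proteasome was read in the same way, and 28 of them were in the table, with Paaf1 not analysed here. In TubA-20 against GV oocytes 5 were more than 2-fold lower and 6 higher, with a median of 0.08. These shares of 17.9% and 21.4% lay above those of all genes, 11.7% and 7.61%, and under those of genes with a mean of at least 10 FPKM, 24% each. Against GV, MII had 3 lower and 1 higher (10.7% and 3.57%) and TubA-10 had 2 lower and 0 higher (7.14% and 0%), beside 8.34% and 3.05% of all genes for MII and 5.6% and 0.742% for TubA-10. These partner shares lay under those of genes with a mean of at least 10 FPKM, 19% and 9.9% for MII and 12.7% and 1.95% for TubA-10. TubA-20 against MII had 3 lower and 0 higher (10.7% and 0%), beside 2.44% and 0.328% of all genes and 6.85% and 0.379% of genes with a mean of at least 10 FPKM. The partner genes were not recomputed with other scalings or pseudocounts. In TubA-20 against GV, Zfand5 at 1.01, Ubqln2 at 1.04 and Ube3c at 1.08 lay just past 2-fold. In MII against GV so did Ufd1 at -1.03 and Nploc4 at -1.01. For scale, making the median change 0 took the member Psmd3 in TubA-20 from 1.02 to 0.84, so the partner counts are not firm. The genes lower in TubA-20 than in GV included sources of ubiquitin itself. Ubb, a polyubiquitin gene, was at 1932 FPKM in GV, 1857 in TubA-10, 1167 in MII and 515 in TubA-20 oocytes, a change of -1.91. Rps27a, a fusion of ubiquitin and a ribosomal protein, was at 611, 117.8, 86.1 and 41.8 FPKM, a change of -3.84. Both were lowest in TubA-20.

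Among the shuttles that bring ubiquitinated proteins to the proteasome, Rad23b was at 20.0, 17.4, 17.7 and 15.3 FPKM, within 2-fold. Ubqln1, a shuttle of another family, was at 76.7, 118, 129.9 and 195 FPKM, a change of 1.34, and Ubqln2 at 22.1, 22.5, 25.3 and 46.3 FPKM, a change of 1.04.

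Of the segregase that pulls proteins from complexes, the ATPase Vcp was at 32.0, 38.2, 45.4 and 42.1 FPKM. Its cofactors Ufd1 and Nploc4 lay past 2-fold downward in TubA-20, with changes of -1.30 and -2.18. Adrm1, the ubiquitin receptor Rpn13, had a change of -1.19.

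Ddi2, the protease that activates the transcription factor of proteasome genes, was at 26.3, 39.3, 48.8 and 69.7 FPKM, a change of 1.37. That factor, Nfe2l1, was at 23.4, 33.6, 35.7 and 37.9 FPKM, a change of 0.67, and the related Nfe2l2 had a change of 0.92. Zfand5, which stimulates the proteasome, Ube3c, a ligase at the proteasome, and Ubfd1 were the remaining genes past 2-fold upward, with changes of 1.01, 1.08 and 1.17. Pomp, the maturation factor of the core, was at 91.8, 118.6, 79.1 and 63.9 FPKM, within 2-fold.

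**Figure D3:**
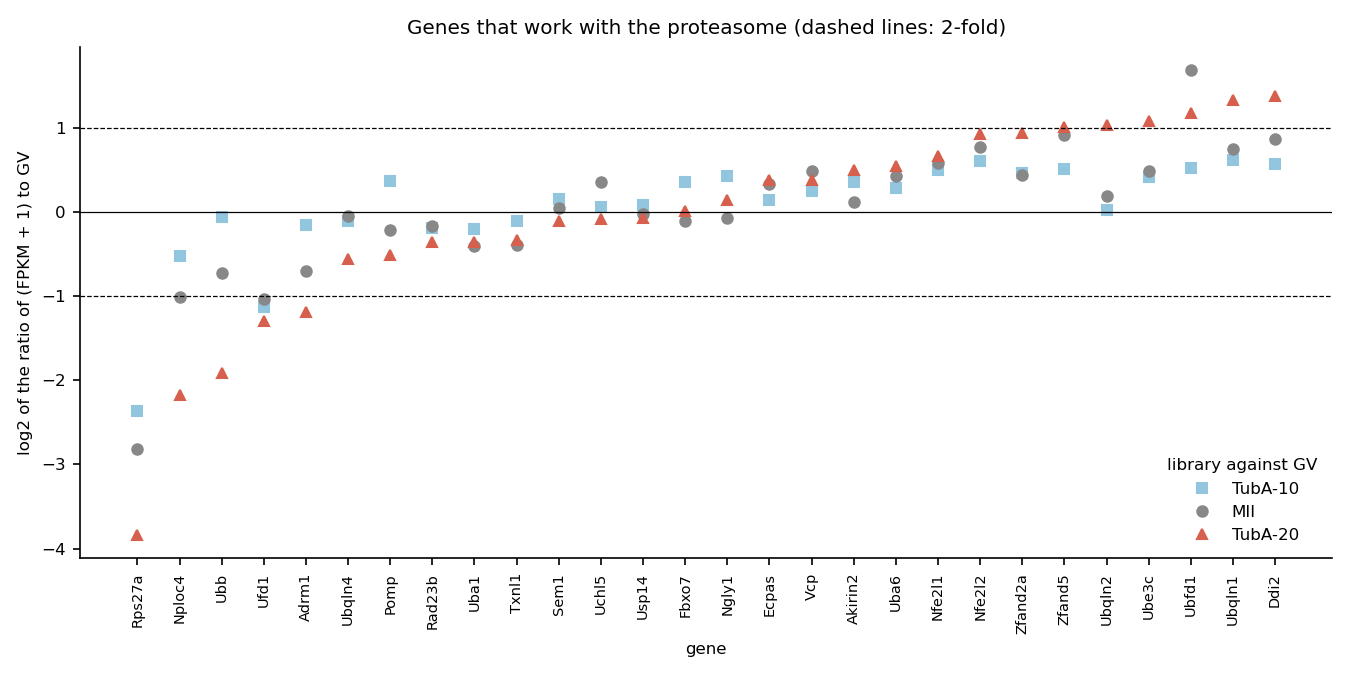
Change of 28 genes that work with the proteasome, in TubA-10 (squares), MII (circles) and TubA-20 (triangles) against GV oocytes, as the log2 ratio of (FPKM + 1), ordered by the TubA-20 value; dashed lines mark 2-fold. Rps27a stands at the left with -3.84, and Ddi2 at the right with 1.37.

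Transcripts of proteasome genes were short. Their median length was 1440 bases, against 2660 bases over the 20392 genes of the table with a 3′ untranslated region, and their 3′ untranslated regions had a median of 237 bases against 798. CPE letters occurred anywhere in that region in 19 of 49 members (38.8%), beside 53.4% of all genes and 58.9% of those with a mean of at least 10 FPKM. In the last 100 bases they occurred in 6 members (12.2%), beside 16.8% of all genes. The poly(A) hexamer was in the last 100 bases of 45 members (91.8%), beside 75.8%. Pumilio letters (TGTANATA) occurred in 6 members (12.2%), beside 21.5%. Every search was on the transcript strand, and the CPE letters can share their last bases with a hexamer. TTTTAAT does so with AATAAA in the Psmb1 and Psmb3 sites printed above, and TTTTAT with ATTAAA in the Psmg3 site.

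The parts of the particle differed in these letters. CPE letters were in 6 of 8 alpha genes, 2 of 7 constitutive beta genes, 1 of 6 ATPases, 5 of 14 Psmd genes, 1 of 5 activators and 2 of 4 assembly factors. The ATPase was Psmc6, the one that was not past 2-fold. Among the 40 members with a mean of at least 10 FPKM, the 23 with no CPE letters had a median of -1.87 for TubA-20 over GV, with 17 more than 2-fold lower and 3 higher. The 17 with such letters had a median of -0.09, with 4 lower and 0 higher. The same held in direction over the 5433 genes of that level with a 3′ untranslated region, with medians of -0.56 and 0.71 and 41.4% and 11.9% lower.

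The exceptions were named genes. Psma3, Psmb1, Psmf1 and Psmg3 held CPE letters and were more than 2-fold lower, and 2 of these, Psmb1 and Psmg3, are in the sites printed above, beside Psma1, Psma5, Psmb3 and Psmg1, which were within 2-fold. Psma7, Psmb2 and Psmd2 held none and stayed within 2-fold, and Psmd1, Psmd3 and Psme4 held none and were higher. Of all genes of that level past 2-fold upward in TubA-20, 78.1% held CPE letters, beside 29% of those that were lower. The proteasome genes that were higher therefore lacked letters that most such genes held, though there were only 3 of them.

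Length moved with the same values. The 28 members below 2000 bases had a median change of -1.69 and the 12 longer ones 0.26, beside -0.51 and 0.67 over all genes of that level, and the Spearman correlation of length and change was 0.31 over 40 members and 0.39 over 5533 genes. A longer transcript has more room for any letters, and the genes share 2 libraries, so these are descriptions; the part of length in the difference by CPE letters was not tested. Of the 28 shorter members 9 were not more than 2-fold lower, among them Psma7, Psmb2 and Psmb3. Of the 12 longer ones 2 were lower, Psma3 and Psmf1.

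**Figure D4:**
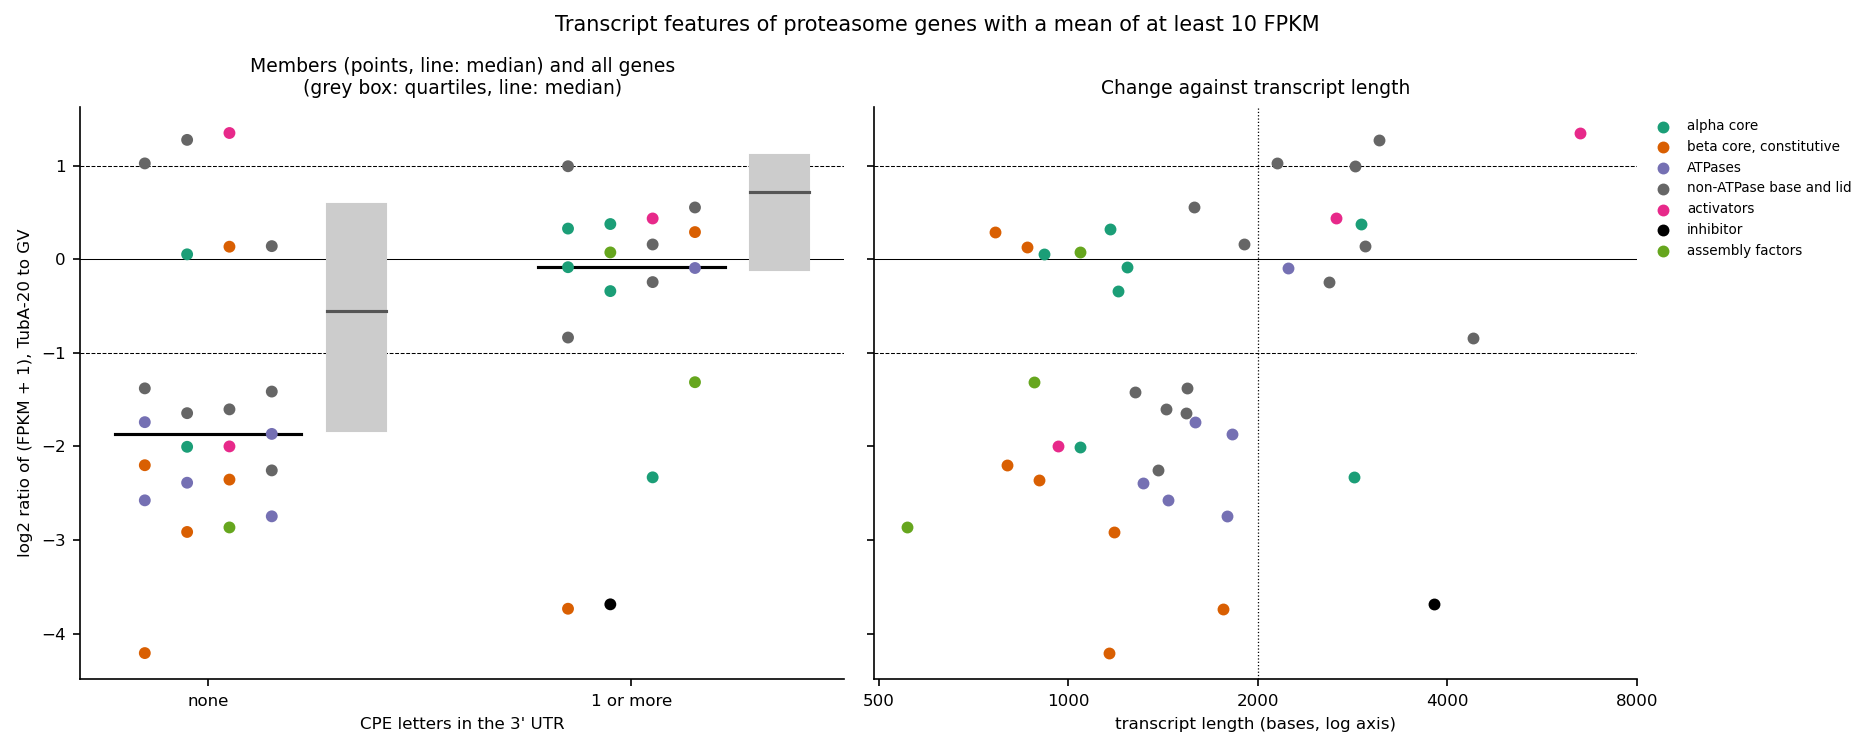
Change in TubA-20 against GV oocytes of the 40 proteasome genes with a mean of at least 10 FPKM, split by CPE letters in the 3′ untranslated region (left) and set against transcript length on a log axis (right), coloured by part of the particle; black lines are medians of members, and grey boxes give the quartiles and median of all genes of that level. Members without the letters centre on -1.87 and those with them on -0.09, and 10 of the 12 members of 2000 bases or more lie above the lower 2-fold line.

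Promoter windows of RefSeq on GRCm38.p6, from 250 bases before to 50 after the start, matched 41 of the 49 members in 44 windows. The ETS letters CCGGAAG, read on both strands, were in 15 of the 44 (34.1%), beside 8.86% of 32851 windows of all genes and 20.3% of the 5799 windows of genes with a mean of at least 10 FPKM. The letters TGACNNNGC of the antioxidant response element, also on both strands, were in 6 (13.6%), beside 12.4% and 15.2%. The ETS letters did not follow the direction of change: of the 14 genes that held them 7 were past 2-fold downward in TubA-20 oocytes, and of the 27 that did not, 12 were. Past 2-fold upward was 1 of the 14, Psme4 at 1.35, and 1 of the 27. Psmc2, past 2-fold downward, and Psmd11, higher but just within 2-fold, are given as examples. The sites are shown on the strand of the gene with these letters, here as CTTCCGG, in capitals. A match is a description of letters and not a binding site.
Psmc2, change -2.75 (chr5:21786712-21786741, plus strand): gcgcggagctaCTTCCGGtggggaagagaa
Psmd11, change 0.99 (chr11:80428593-80428622, plus strand): cgagggcgggtCTTCCGGgtgtgtgtttcc

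Several genes have near-identical copies that could take or give fragments when reads are assigned. Copies of at least 95% identity over at least 50% of the transcript were found for 9 members, Psma4, Psma5, Psmb3, Psmb5, Psmc1, Psmd2, Psmd11, Psme2 and Psme2b, so their values are uncertain by an unknown amount. Of those copies that were in the table, Gm8394 for Psma5, Gm4950 for Psmb3 and Gm5422 for Psmd2 did not exceed 1.09 FPKM in any library. The span of another gene overlaps on the same strand for 10 members, Psma2, Psmb5, Psmb7, Psmc5, Psmd1, Psmd12, Psmd13, Psmd14, Psme2b and Psmg3. Whole spans with introns were compared, so whether exons and their fragments are shared was not tested.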

How the data were processed

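RNA from pools of 100 oocytes was poly(A)-selected and sequenced as strand-specific paired-end libraries, 1 per condition. The authors quantified genes with Cufflinks in its first-strand mode on mm10 and deposited FPKM values in 1 table. The submitters' processing notes name STAR 2.5.0, Cufflinks and Cuffdiff 2.2.1. The labels and the methods name different RNA extraction reagents. The table held 21959 entries, of which 165 had no symbol, and entries that shared a symbol were added, which left 21957 genes.

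Changes were computed as the log2 ratio of (FPKM + 1), with 2-fold as the limit, in Python 3.11.15 with pandas 2.3.3 and checked on simulated data. No read counts were used. The smallest steps of FPKM put TubA-20 at 0.897 times the depth of GV, with 67.2% of 813 low genes near that step; for TubA-10 and MII the steps (1.705 and 1.616 times) held for only 22.3% and 17.1%. The authors report more reads for TubA-20 than for GV, and still more for TubA-10 and MII. For TubA-20 the step and the read totals thus differ in direction, and why was not tested. FPKM sums were 568331 to 627340 per library.

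Transcripts and coordinates came from GENCODE on GRCm38, sites within 3′ untranslated regions from the transcript with the longest coding sequence, and copies from a BLAST search. Genes named in the text are all members, and the partner list, of which some genes are not reported here. The members and lists were chosen with earlier results of these data known. The minimum mean of 10 FPKM, the length split, the separate account of active-site beta genes, the alpha genes without Psma8, the shares over all lower genes and the copy search were added after seeing the data.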

Additional observations from a re-analysis of the deposited data

How the results depend on the processing

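The medians by part of the particle, the counts of members past 2-fold and each member's change were recomputed with other pseudocounts, minimum levels and 4 scalings of the libraries, with a 3-fold limit for counts, with the highest entry of a symbol, with Psmc3ip added and by position in the particle. A single value or median was taken as moved when it crossed 2-fold or shifted by over 0.5 on the log2 scale, and a count when it changed by over 1.5 times. No change past 2-fold turned its direction. Of 1542 recomputed changes of single genes 1479 were kept by this measure, and of 346 medians and counts 320 were. Scaling moved the median over the 9193 genes of at least 1 FPKM in every library by up to 0.23, from 0.14 to 0.37 in TubA-10 when Gapdh was held equal.

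In TubA-20 against GV, the assembly factors passed 2-fold at -1.03 and -1.05 with pseudocounts of 0.1 and 0.01, -1.31 over those of at least 5 FPKM and -1.06 with a median change of 0. All 49 members then had -1.42 with either pseudocount, -1.002 over those of at least 1 FPKM and -1.35 over those of at least 5 FPKM. In MII against GV the activators had -1.04 and -1.61 with these pseudocounts, and in TubA-10 -1.07 and -1.65, through Psme1 and Psme2b at low levels; at 5 FPKM the assembly factors in MII had -1.18 and all members -1.015. The beta genes in TubA-10 had -0.82 with equal Gapdh. With a 3-fold limit, 0 members were higher in TubA-20, 13 lower in MII, 7 lower in TubA-10 and 2 lower in TubA-20 than in MII. With equal FPKM sums or equal Gapdh 2 members were higher in MII, and with equal Gapdh 1 was higher in TubA-10. With pseudocounts of 0.1 and 0.01, 8 members were lower in TubA-20 than in MII, and 1 and 2 were higher. Ranks within a library leave the order of levels as it is by construction. With the longest transcript of each gene, 19 members again held CPE letters, though not all the same ones. Of the members with a mean of at least 10 FPKM, 16 of 23 without the letters were then more than 2-fold lower in TubA-20. Of those with the letters, 5 of 17 were. The medians were -1.87 and -0.09, and the exceptions named above rest on the transcript with the longest coding sequence. Of single genes past 2-fold, Psmb5, Psmd8 and Psmg3 in MII had -0.87, -0.96 and -0.96 with equal Gapdh, and Psmb4, Psmc5 and Psmd6 in TubA-10 had -0.82, -0.97 and -0.97, while Psmd1 and Psme4 in MII passed it upward at 1.16 and 1.13. Psmb5 in MII had -0.97 with equal FPKM sums. No paired analysis was possible because each condition is 1 library. Changes of members with a mean below 10 FPKM, of which Psmd13 passed 2-fold in TubA-20 and Psme1 in TubA-10, are made smaller by the added 1 FPKM.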

Other observations

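Psmc3ip, the gene that the symbol rule matched although it belongs to no proteasome, is a cofactor of strand exchange in meiotic recombination, which ends before birth in oocytes. It was at 70.1 FPKM in GV, 30.1 in TubA-10, 27.9 in MII and 24.8 in TubA-20 oocytes, a change of -1.46 in the last against GV, and so had the same order of libraries as most of the lower proteasome genes.

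Psmg2, Psme1 and Psmd13, members of constitutive or common parts of the particle, were listed far below their partners in every library. Psmg2 was at 1.55 to 2.62 FPKM where Psmg1 was at 162 to 228, Psme1 at 0.316 to 1.69 FPKM where Psme2 was at 11.2 to 48.0, and Psmd13 at 1.18 to 3.88 FPKM where the other 13 Psmd genes lay above 20 FPKM. The proteins of each are found together in the particle or in the complex. Whether the gene model used for counting covers the transcripts that oocytes make of these genes was not tested.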
